A study of Mus musculus with 24 samples.

Results

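The 10 genes described here are the glucocorticoid receptors and a group of genes that respond to them: *Nr3c1*, *Nr3c2*, *Fkbp5*, *Sgk1*, *Tsc22d3*, *Zbtb16*, *Hsd11b1*, *Klf9*, *Errfi1* and *Plin4*. They were taken by symbol from a list of known receptors and responsive genes, with no threshold on their measured values, and all 10 of them were among the 26667 genes of the deposited count table. The study measured RNA from the mouse hippocampal dentate gyrus and compared treatments in a model of brain amyloid. Wild-type (WT) C57BL6/J mice gave 5 libraries, and APP/PS1 mice without drug or wheel gave 5 (called control). APP/PS1 mice given BCI-838 at 5 mg/kg daily by mouth for 1 month gave 4 libraries, APP/PS1 mice with free access to a running wheel for 1 month gave 5 (called exercise), and APP/PS1 mice with drug and wheel gave 5 (called both). BCI-838 is converted in the body to a compound that blocks the glutamate receptors mGluR2 and mGluR3. APP/PS1 mice carry transgenes for the amyloid precursor protein and presenilin 1, and their WT comparison has neither. The labels give no age, no promoter for the transgenes, no hour of tissue collection and no corticosterone level. The libraries are described as separate mice.

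Glucocorticoids (corticosterone in the mouse) cross the cell membrane and bind receptors that sit in the cytoplasm in a chaperone complex. The bound receptor enters the nucleus and switches genes on or off, in many cases at a palindromic DNA element. The hippocampus holds both receptors: the mineralocorticoid receptor, encoded by *Nr3c2*, binds corticosterone with high affinity and is largely occupied at rest, and the glucocorticoid receptor, encoded by *Nr3c1*, fills as the hormone rises with stress or the daily rhythm. Among the responsive genes, *Fkbp5* encodes a co-chaperone that lowers the receptor's affinity for the hormone, so its induction closes a feedback loop.

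The libraries held between 48656360 and 64632882 counts, and 18286 genes passed the filter on low counts, among them all 10 members. *App* averaged 1728 ± 247 CPM in WT and 3379 ± 371 CPM in control libraries (SD, n = 5 each), and *Prnp* averaged 846 ± 98.7 and 2006 ± 172 CPM. The ranges of both genes lay apart between WT and each APP/PS1 group, and for *App* this is what the labels give. CPM is the usual count scaled to library size, here multiplied by TMM factors that adjust the size for differences in composition. The defining dentate granule neuron markers varied widely: *Prox1* ranged from 14.3 to 175 CPM and *C1ql2* from 14.3 to 453 CPM over the 24 libraries. *Ttr*, a choroid plexus transcript, exceeded 100 CPM in 4 libraries (3 control and 1 both). In whole tissue, fewer cells of a type and less RNA per cell cannot be told apart. Y-linked transcripts exceeded 1 CPM in all 24 libraries.

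Per kilobase of annotated exon, the mean level over all libraries was highest for *Klf9* at 41.6 CPM per kb, followed by *Nr3c2* at 23.8, *Zbtb16* at 16.6 and *Nr3c1* and *Sgk1* at 14.9 each. *Tsc22d3* stood at 12.3, *Errfi1* at 9.96, *Hsd11b1* at 7.80 and *Fkbp5* at 6.09 CPM per kb. *Plin4*, which encodes a lipid droplet coat protein best known from fat and muscle, was lowest at 1.03 CPM per kb and had between 141 and 595 counts per library. Each other member had at least 1529 counts in every library. The steadiness of the members differed: the highest of the 24 libraries exceeded the lowest 1.44-fold for *Errfi1*, 1.49-fold for *Hsd11b1*, 1.75-fold for *Klf9* and 1.80-fold for *Nr3c1*. The ratio was 2.06 for *Zbtb16*, 2.32 for *Sgk1*, 2.67 for *Tsc22d3* and 2.73 for *Fkbp5*, and it reached 3.80 for *Nr3c2* and 3.96 for *Plin4*.

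**Figure D1:**
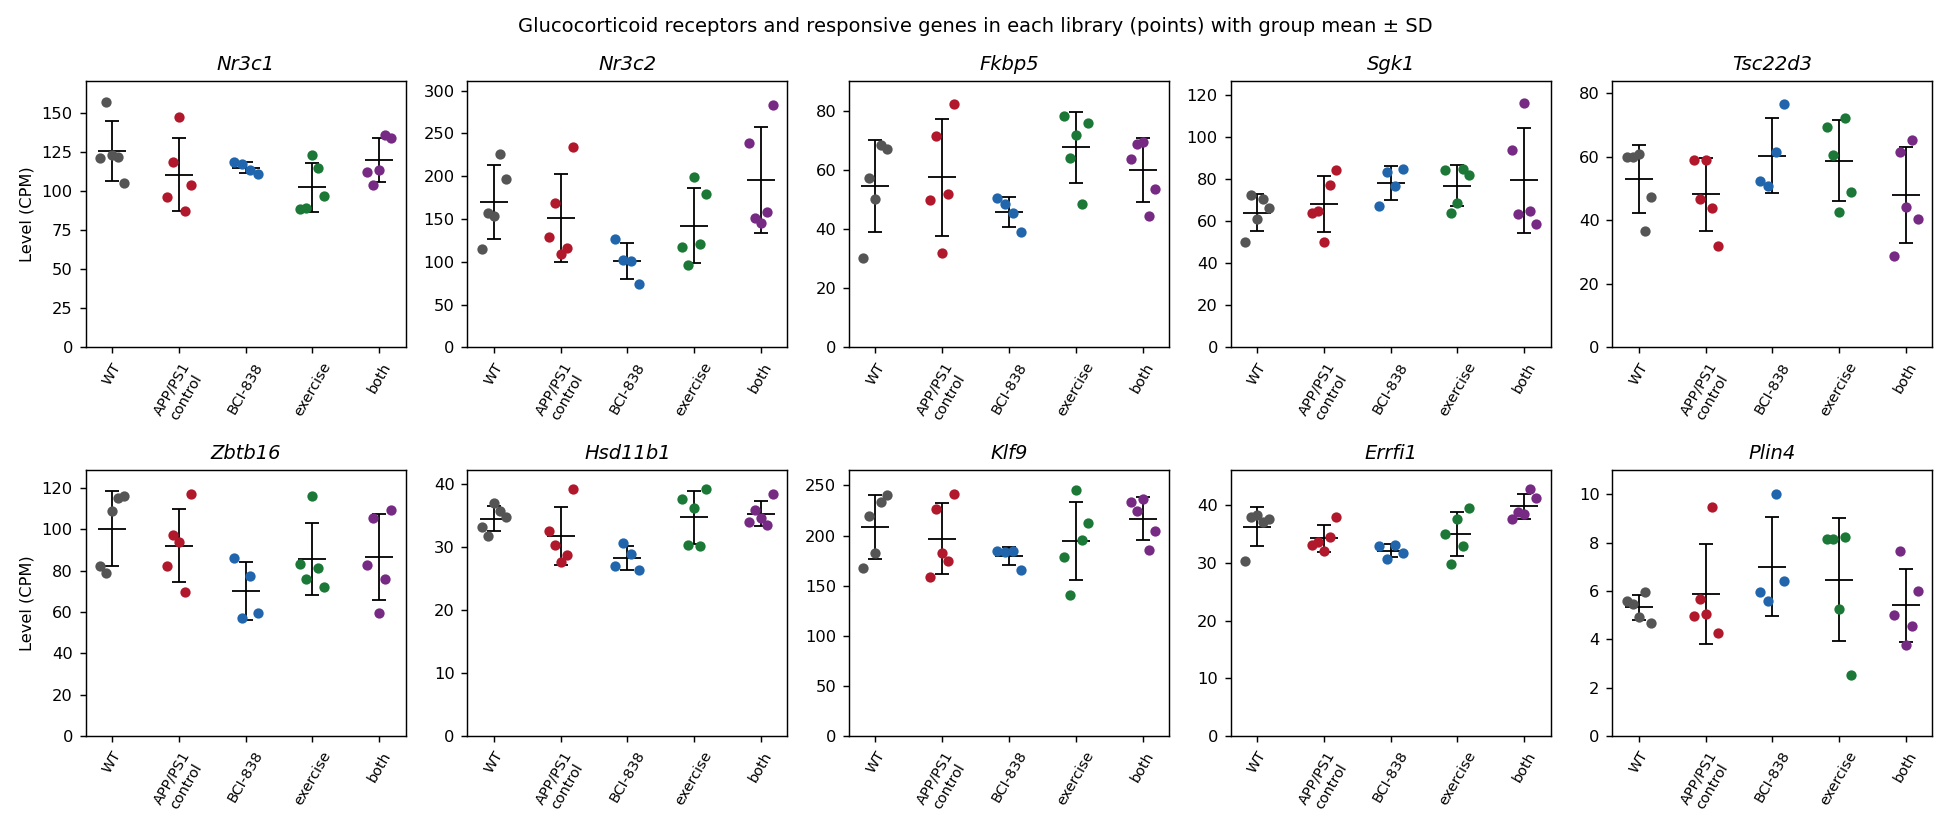
Level of each of the 10 genes in CPM (vertical axis, from 0) for the 24 libraries by group (horizontal axis); points are libraries, the long bar is the group mean and the whiskers the SD. The BCI-838 points of *Nr3c2*, *Hsd11b1*, *Klf9* and *Errfi1* all lie below the points of the group given both, while the groups of the other 6 genes overlap in those 2 columns.

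*Nr3c1* lies on chromosome 18 (39410545 to 39519421, minus strand, GRCm38, the assembly that mm10 names). It was the steadiest of the pair of receptors. WT libraries held 121, 157, 123, 122 and 106 CPM, and control libraries 96.2, 119, 148, 87.3 and 104 CPM. BCI-838 libraries held 119, 117, 114 and 111 CPM, exercise libraries 88.6, 89.1, 123, 115 and 97.2 CPM, and libraries given both 112, 104, 114, 136 and 134 CPM. Every group overlapped every other. The order of the means ran from WT (126 ± 19.0 CPM) through both (120.1 ± 14.2), BCI-838 (115 ± 3.53) and control (111 ± 23.6) to exercise (103 ± 15.6). No neighbours in that order had a p under 0.05 in a two-sided exact permutation test of mean log2 CPM. Neighbours are the closest groups by these same data, so a small p was unlikely beforehand, and groups farther apart were not compared this way. All but 1 of the 40 neighbouring pairs of group means over the 10 genes likewise had no p under 0.05. The exception was *Errfi1* between both and WT, with an exact permutation p of 0.0317 that became 0.993 after Benjamini-Hochberg adjustment over the 40 pairs, in a design whose smallest possible p is 0.00794 for 5 against 5.

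*Nr3c2* lies on chromosome 8 (76899442 to 77245012, plus strand, GRCm38), and 247 of its exon bases overlap *Gm10649* on the other strand. Whether counting used strand is not given in the sources used here. *Nr3c2* in the BCI-838 libraries stood at 126, 102, 101 and 74.4 CPM, and in the libraries given both at 238, 152, 145, 158 and 283 CPM, so that these ranges did not meet. In control libraries it stood at 128, 168, 109, 116 and 234 CPM, in exercise libraries at 117, 96.2, 199, 121 and 179 CPM, and in WT libraries at 115, 157, 153, 226 and 197 CPM. These 3 groups spanned most of the gene's range and overlapped both of the others. The means were 195 ± 62.0 CPM for both (SD, n = 5), 169.8 ± 42.9 for WT, 151 ± 51.7 for control, 142 ± 44.0 for exercise and 101 ± 21.2 for BCI-838 (n = 4).

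*Fkbp5*, on chromosome 17 (28399094 to 28517527, minus strand), is among the most widely used readouts of glucocorticoid receptor activity in brain. Its libraries held 30.2, 57.3, 50.2, 68.5 and 67.2 CPM in WT and 49.9, 71.6, 32.1, 51.8 and 82.5 CPM in control mice. They held 78.3, 64.2, 71.8, 48.5 and 76.1 CPM with exercise and 63.9, 68.9, 69.5, 44.5 and 53.7 CPM with both. The BCI-838 libraries were the tightest group, at 50.6, 48.7, 45.5 and 39.1 CPM. The lowest libraries were replicate 1 of WT and replicate 3 of control, and all groups overlapped. *Zbtb16*, on chromosome 9 (48654297 to 48836222, minus strand), encodes the transcription repressor PLZF, which is induced by steroid hormones in many cell types. It averaged 100.1 ± 18.2 CPM in WT, 91.9 ± 17.6 in control, 86.6 ± 20.9 with both, 85.7 ± 17.4 with exercise and 70.0 ± 14.1 CPM with BCI-838. The BCI-838 libraries of *Zbtb16* held 86.2, 56.8, 77.4 and 59.7 CPM and the control libraries 82.4, 96.9, 93.7, 69.7 and 117 CPM, so 2 of the 4 lay below all controls.

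*Sgk1*, on chromosome 10 (21882184 to 21999903, plus strand), encodes a kinase that regulates ion channels and transporters and is a classic target of both receptors. Its levels were 50.2, 72.7, 61.2, 70.5 and 66.2 CPM in WT, 64.1, 64.9, 50.1, 77.5 and 84.5 CPM in control and 67.5, 83.3, 76.8 and 85.2 CPM in BCI-838 libraries. Exercise libraries held 84.7, 64.1, 68.7, 85.0 and 82.2 CPM, and libraries given both held 94.0, 63.7, 116, 64.9 and 58.6 CPM. All groups overlapped, and the group given both contained both the highest library and the widest spread (SD 24.9 CPM). Promoter windows from RefSeq (assembly GRCm38.p6, 250 bases before to 50 after each start) were searched for the palindrome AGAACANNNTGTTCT, the canonical element bound by both receptors, which reads the same on either strand. Of the 10 genes, 8 matched the table, with 16 promoters (*Nr3c1* and *Zbtb16* did not match). The palindrome with no mismatch was present in 3 of all 32851 promoters (0.00913%), and 1 of those 3 belongs to *Sgk1*, in which it begins 189 bases before the start. The region before that start is shown because it holds the one exact palindrome among the members, in capitals, at chr10:21993640-21993889 on the plus strand, outside annotated exons.
Sgk1 start 5: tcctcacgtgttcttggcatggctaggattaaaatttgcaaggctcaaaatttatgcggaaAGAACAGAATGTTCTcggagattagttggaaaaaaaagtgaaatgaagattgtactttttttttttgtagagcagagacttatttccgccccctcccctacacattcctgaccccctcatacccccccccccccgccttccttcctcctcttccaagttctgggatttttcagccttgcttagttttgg

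The nearest matches in other member promoters are shown for comparison, with the aligned 15 bases in capitals. A match within 2 mismatches of the 12 fixed positions was present in 2 of the 16 member promoters, both of *Sgk1*, and in 1.84% of all promoters. Within 3 mismatches the counts were 4 of 16 and 14.5%, and a copy of AGAACA on either strand was present in 4 of 16 and in 19.0%. The windows lie at chr10:21985915-21985941 (2 mismatches), chr10:21881974-21882000 (3 mismatches) and chr4:150854829-150854855 (3 mismatches), all on the plus strand and outside exons.
Sgk1 start 3: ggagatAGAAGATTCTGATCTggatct
Sgk1 start 1: cccaagGGAATCCGTTGTTCTgtgttt
Errfi1 start 2: ctaaggAAAACTCGGTGTCCTtaggct
These are matches of letters in a short window. They are not measured binding, and such elements often lie far from promoters.

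*Tsc22d3*, on chromosome X (140539528 to 140600659, minus strand), encodes GILZ, a leucine zipper protein through which glucocorticoids restrain inflammatory signalling. It averaged 52.9 ± 10.7 CPM in WT, 48.1 ± 11.3 in control, 60.4 ± 11.9 with BCI-838, 58.7 ± 12.7 with exercise and 47.9 ± 15.2 CPM with both. The lowest library, at 28.7 CPM, was replicate 1 of the group given both, and the highest, at 76.6 CPM, was replicate 4 of BCI-838. *Plin4*, on chromosome 17 (56100591 to 56109803, minus strand), shares 17 exon bases with *Hdgfl2* on the other strand. Its group means lay between 5.32 ± 0.513 CPM in WT and 7.0 ± 2.04 CPM with BCI-838, and single libraries between 2.53 and 10.02 CPM. Groups of *Tsc22d3* and of *Plin4* all overlapped.

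*Hsd11b1*, on chromosome 1 (193221634 to 193264075, minus strand), encodes the enzyme that regenerates active corticosterone from its inert 11-keto form inside cells. BCI-838 libraries held 27.1, 30.7, 29.0 and 26.3 CPM, and libraries given both 34.1, 36.0, 34.6, 33.6 and 38.5 CPM, without overlap. Control libraries held 32.5, 30.4, 27.7, 28.8 and 39.3 CPM, exercise libraries 37.7, 30.4, 36.2, 30.3 and 39.3 CPM, and WT libraries 33.3, 31.9, 37.0, 35.8 and 34.9 CPM. Control and exercise libraries overlapped with the BCI-838 range, and the highest level, 39.3 CPM, was reached in both of those groups. The WT libraries all lay above the BCI-838 range, a pair of groups that was not tested.

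*Klf9*, on chromosome 19 (23141226 to 23168134, plus strand), encodes a zinc finger factor induced by glucocorticoid and thyroid hormone that takes part in the late maturation of dentate granule neurons. It stood at 184, 183, 184 and 166 CPM in BCI-838 libraries and at 233, 225, 237, 185 and 204 CPM in libraries given both. The lowest library given both thus stood barely above the highest BCI-838 library. WT (168, 219, 183, 234 and 240.3 CPM), control (158, 226, 183, 175 and 241 CPM) and exercise (179, 140.4, 245, 196 and 213 CPM) each covered nearly the whole range of those 2 groups. *Errfi1*, on chromosome 4 (150853919 to 150868892, plus strand), encodes an inhibitor of the epidermal growth factor receptor. It held 33.0, 30.7, 33.2 and 31.7 CPM with BCI-838 and 37.7, 38.8, 38.5, 42.9 and 41.4 CPM with both, a gap wider than the range of the BCI-838 group. Control libraries held 33.1, 33.6, 32.1, 34.5 and 38.1 CPM, so 4 of the 5 libraries given both exceeded all controls. Exercise libraries held 35.1, 29.9, 37.6, 33.0 and 39.5 CPM. WT libraries held 30.4, 38.0, 38.3, 37.2 and 37.7 CPM, which were close together except for replicate 1.

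All groups entered 1 edgeR model over the 24 libraries, with quasi-likelihood F tests of each difference. The threshold for a call was a p under 0.05 after Benjamini-Hochberg adjustment over the 18286 genes. Differences are given as log2 fold changes, in which 1 is a doubling, with the standard error (SE). No member was called in any of the 8 comparisons by edgeR. The amyloid transgenes were examined first. Between control and WT libraries, 0 of 10 members were called, where 0.0109% of all genes were, and 0 had an unadjusted p under 0.05, where 2.76% of all genes did. DESeq2 (all genes 0.0700%) and limma voom with quality weights (0.0109%) each called 0 of 10 too. The median difference of the members was -0.10, beside -0.0078 over all genes, with 3 higher and 7 lower in control. The largest in size was *Nr3c1*, at -0.18 (SE 0.13), whose 95% interval ran from -0.45 to 0.078. For *Errfi1*, the member measured most tightly, the interval ran from -0.24 to 0.070, and for *Nr3c2* it ran from -0.69 to 0.35.

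The comparison of BCI-838 with control addressed the drug in sedentary APP/PS1 mice. By edgeR, 0 of 10 members were called (all genes 0%), and 2 had an unadjusted p under 0.05, where 10.2% of all genes did. DESeq2 (all genes 0.822%) and voom (2.32%) also called 0 of 10. *Nr3c2* differed by -0.58 (SE 0.27, edgeR p 0.0401, adjusted p 0.457), with 3 of 4 BCI-838 libraries below all controls. *Zbtb16* differed by -0.39 (SE 0.19, edgeR p 0.0485, adjusted p 0.487), with 2 of 4 below all controls. The other members differed by between -0.32 (*Fkbp5*) and 0.33 (*Tsc22d3*), and the median of all 10 was -0.11, with 4 higher and 6 lower. The *Nr3c2* difference was -0.23 when the 4 libraries with more than 100 CPM of *Ttr* were left out, 3 of which are controls. Over all alternatives the *Nr3c2* difference ran from -0.72 to -0.23, and its adjusted p from 0.107 to 0.919. In this comparison 9 of 10 markers of CA pyramidal neurons, from the adjoining hippocampal fields, were lower (median -0.43). Of 7 tested dorsal midbrain factors 6 were higher (median 1.42). With the midbrain score as a covariate, chosen after seeing the data, 0 members had an unadjusted edgeR p under 0.05. With the CA pyramidal score, chosen likewise, 1 did. The choroid plexus, endothelial, mural cell and fibroblast, and granule neuron scores as covariates each gave 0 as well. The oligodendrocyte score gave 1, so the loss was not particular to the midbrain score. The part of these tissues was not tested beyond these values.

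For exercise against control, the wheel alone, edgeR called 0 of 10 members (all genes 0.00547%), and 0 had an unadjusted p under 0.05 (all genes 5.44%). DESeq2 (all genes 0.252%) and voom (0%) called 0 of 10 as well. The median was 0.08, with 6 higher and 4 lower. *Fkbp5* differed by 0.24 (SE 0.22) with a 95% interval from -0.22 to 0.69, *Sgk1* by 0.17 (SE 0.17), and *Tsc22d3* by 0.29 (SE 0.21), with 3 of 5 exercise libraries above all controls. The interval of *Tsc22d3* ran from -0.16 to 0.73. All 3 intervals include no change, and those of *Fkbp5* and *Tsc22d3* also include a difference of more than 1.5-fold.

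For both against control, edgeR again called 0 of 10 members (all genes 0%), as did DESeq2 (0.497%) and voom (0%). *Errfi1* alone had an unadjusted p under 0.05, 1 of 10 where 10.6% of all genes did. It was higher by 0.22 (SE 0.07, edgeR p 0.00748, adjusted p 0.333), a 1.16-fold difference. The median of the 10 was 0.13, with 7 higher and 3 lower. *Nr3c2* differed by 0.37 (SE 0.25) and *Fkbp5* by 0.06 (SE 0.22). For both against exercise, the drug added to the wheel, 0 of 10 members were called by edgeR (all genes 0%), DESeq2 (2.26%) and voom (5.41%). By edgeR 1 had an unadjusted p under 0.05, where 17.6% of all genes did. That member was again *Errfi1*, at 0.19 (SE 0.07, edgeR p 0.0198, adjusted p 0.206), with 2 of 5 libraries given both above all exercise libraries. Summed markers of vessel cells tended to be lower where *Errfi1* was higher. The 12 mural cell and fibroblast markers summed to 133 to 202 CPM with both and 193 to 322 CPM in controls, and the 14 endothelial markers to 299 to 367 CPM with both and 364 to 468 CPM with exercise. With the mural cell and fibroblast score as a covariate, chosen after seeing the data, *Errfi1* differed from control by 0.11, and with the endothelial score it differed from exercise by 0.05. Each was the smallest over 25 alternatives, which reached 0.28 against control and 0.23 against exercise. The part of these cells was not tested further.

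Between pairs of groups, the widest differences among the members were those of both against BCI-838, the wheel added to the drug. By edgeR 0 of 10 were called (all genes 0%), and 3 had an unadjusted p under 0.05, where 14.3% of all genes did. *Nr3c2* was 1.94-fold higher with both (log2 fold change 0.95, SE 0.27, edgeR p 0.00187, adjusted p 0.185), with a 95% interval from 0.39 to 1.51. *Hsd11b1* was 1.25-fold higher (0.32, SE 0.09, edgeR p 0.00237, adjusted p 0.185), and *Errfi1* was 1.24-fold higher (0.31, SE 0.08, edgeR p 0.000715, adjusted p 0.185). DESeq2, which called 1.47% of all genes, called 2 of the 10, *Nr3c2* (adjusted p 0.0351) and *Errfi1* (0.0325). Limma voom with quality weights, which called 4.79% of all genes, called all 3 of these genes (adjusted p 0.0313, 0.0310 and 0.0261 for *Nr3c2*, *Hsd11b1* and *Errfi1*). An edgeR fit of the compared libraries alone called *Errfi1* (adjusted p 0.0480) and 0.637% of all genes. The calls therefore change with the tool and with the libraries fitted, and over all alternatives the adjusted p ran from 0.0313 to 1.00, from 0.0310 to 1.00 and from 0.0261 to 1.00 for the 3 genes in that order. All 5 libraries given both exceeded all 4 BCI-838 libraries for 4 of 10 members, *Nr3c2*, *Hsd11b1*, *Klf9* and *Errfi1*, where 4.30% of all genes separated in that direction. *Klf9* differed by 0.27 (SE 0.14, edgeR p 0.0667, adjusted p 0.387). *Fkbp5*, at 0.39 (SE 0.23), had 4 of 5 libraries given both above all BCI-838 libraries, and *Sgk1*, at 0.02 (SE 0.18), had 2. The median over the 10 was 0.29, with 8 higher and 2 lower (*Tsc22d3* at -0.33 and *Plin4* at -0.37), beside -0.0057 over all genes.

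**Figure D2:**
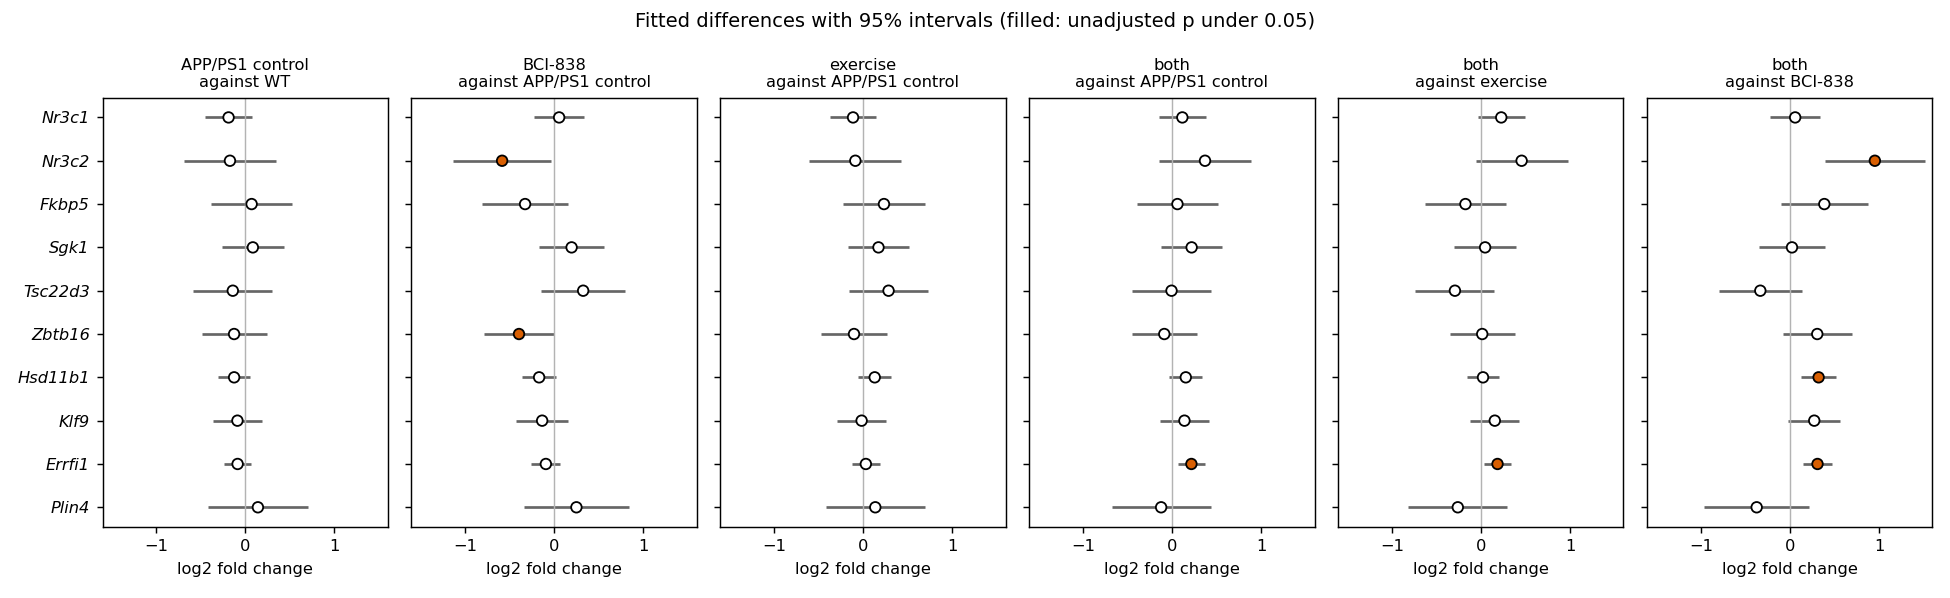
Fitted log2 fold change (horizontal axis) of each of the 10 genes (rows) in the 6 comparisons of groups (panels), with 95% intervals; filled points have an unadjusted edgeR p under 0.05. The filled points are *Nr3c2* and *Zbtb16* in the panel of BCI-838 against control, *Errfi1* in the 3 panels of both, and *Nr3c2* and *Hsd11b1* in the panel of both against BCI-838.

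Markers of neighbouring tissue moved with the same groups. The 8 transcription factors of the dorsal midbrain summed to 52.2 to 101 CPM in the BCI-838 libraries and 1.81 to 36.3 CPM in those given both, and 1 of the 8 in the former group and 4 in the latter were at 0 in at least 1 library. The 10 markers of CA pyramidal neurons, the principal cells of the adjoining hippocampal fields, summed to 627 to 809 CPM with BCI-838 and 631 to 1859 CPM with both. The mural cell and fibroblast markers summed to 192 to 274 CPM with BCI-838. With the midbrain score as a covariate, chosen after seeing the data, the differences between both and BCI-838 were 0.36 for *Nr3c2*, 0.20 for *Hsd11b1* and 0.14 for *Errfi1*, each the smallest over the alternatives run. The part of these tissues in the differences was not tested beyond these values.

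The interaction asks whether the wheel's difference changes with the drug. By edgeR 0 of 10 members were called (all genes 0%), and 2 had an unadjusted p under 0.05, where 9.60% of all genes did. DESeq2 (all genes 0.387%) and voom (0%) called 0 of 10. *Nr3c2* had an interaction of 1.04 (SE 0.36, edgeR p 0.00945, adjusted p 0.410) and *Errfi1* of 0.28 (SE 0.11, edgeR p 0.0176, adjusted p 0.438). Against control, *Nr3c2* was at -0.58 with the drug alone, at -0.09 with the wheel alone and at 0.37 with both. Its interaction was 0.46 with the midbrain covariate. For *Errfi1* it was 0.11 with the endothelial covariate. Each was the smallest over 33 alternatives, which reached 1.19 for *Nr3c2* and 0.33 for *Errfi1*. The interaction, the drug alone and both against BCI-838 all use the same 4 BCI-838 libraries. The F test of any difference among the 5 groups called 0 of 10 members by edgeR (all genes 0.0273%) and 0 by DESeq2 (all genes 2.66%). It gave 3 members an unadjusted p under 0.05, where 14.1% of all genes had one. These were *Errfi1* (edgeR p 0.00884, adjusted p 0.259), *Hsd11b1* (p 0.0145, adjusted p 0.279) and *Nr3c2* (p 0.0262, adjusted p 0.305). Voom called 3 of the 10, where it called 8.84% of all genes.

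Because the spread within groups was wide, the members were compared across libraries after each group's mean was removed. The measure was log2 CPM with a prior count of 2, and p-values came from 100000 permutations within groups. *Fkbp5* was taken as the index gene against the other 9. With *Klf9* it had a Pearson r of 0.65 (permutation p 0.00352, adjusted p 0.0211 over the 9) and a Spearman rho of 0.76 (permutation p 0.000770, adjusted p 0.00693). This relation changed little without the 2 libraries farthest from the median of *Fkbp5*, replicate 1 of WT and replicate 3 of control (r 0.66). With *Nr3c2* r was 0.60 (adjusted permutation p 0.0211; rho 0.52, adjusted p 0.0626; r 0.48 without the 2 libraries), and with *Hsd11b1* it was 0.56 (adjusted permutation p 0.0255; rho 0.47, adjusted p 0.0794; r 0.53 without the 2 libraries). *Tsc22d3* went the other way, with r -0.57 (adjusted permutation p 0.0211; rho -0.52, adjusted p 0.0626; r -0.59 without the 2 libraries). The relations with *Sgk1* (r 0.53, adjusted permutation p 0.0255; rho 0.46, adjusted p 0.101) and *Errfi1* (r 0.50, adjusted permutation p 0.0464; rho 0.36, adjusted p 0.176) were 0.28 and 0.18 without those 2 libraries and so rest on them. *Nr3c1* (r -0.37, rho -0.33, adjusted permutation p 0.196 and 0.230), *Zbtb16* (r 0.31, rho 0.29, 0.196 and 0.230) and *Plin4* (r -0.17, rho -0.21, 0.415 and 0.342) did not pass. Without replicate 1 of WT alone, or without replicate 5 of control alone, 0 of the 9 relations passed by r, and the same was true without the 4 libraries rich in *Ttr*.

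Over all 45 pairs of members, a set added after seeing the data, 27 had a positive r and the median was 0.14. The pairs with a Benjamini-Hochberg adjusted permutation p under 0.05 over the 45 numbered 10 by r, 7 positive and 3 negative, and 7 of these also passed by rho. *Nr3c2* took part in 6 of the 10. Its r was 0.71 with *Klf9* (adjusted permutation p 0.0155; rho 0.69, adjusted p 0.0174; r 0.81 without the 2 libraries farthest from the median of *Nr3c2*). It was -0.78 with *Tsc22d3* (adjusted permutation p 0.00360; rho -0.75, adjusted p 0.00855; r -0.78 without them). The mineralocorticoid receptor transcript was thus high in the libraries in which *Tsc22d3* was low. The glucocorticoid receptor transcript *Nr3c1* was in none of the 10 pairs. The values of 1 library enter every pair, so the pairs are not independent of each other.

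**Figure D3:**
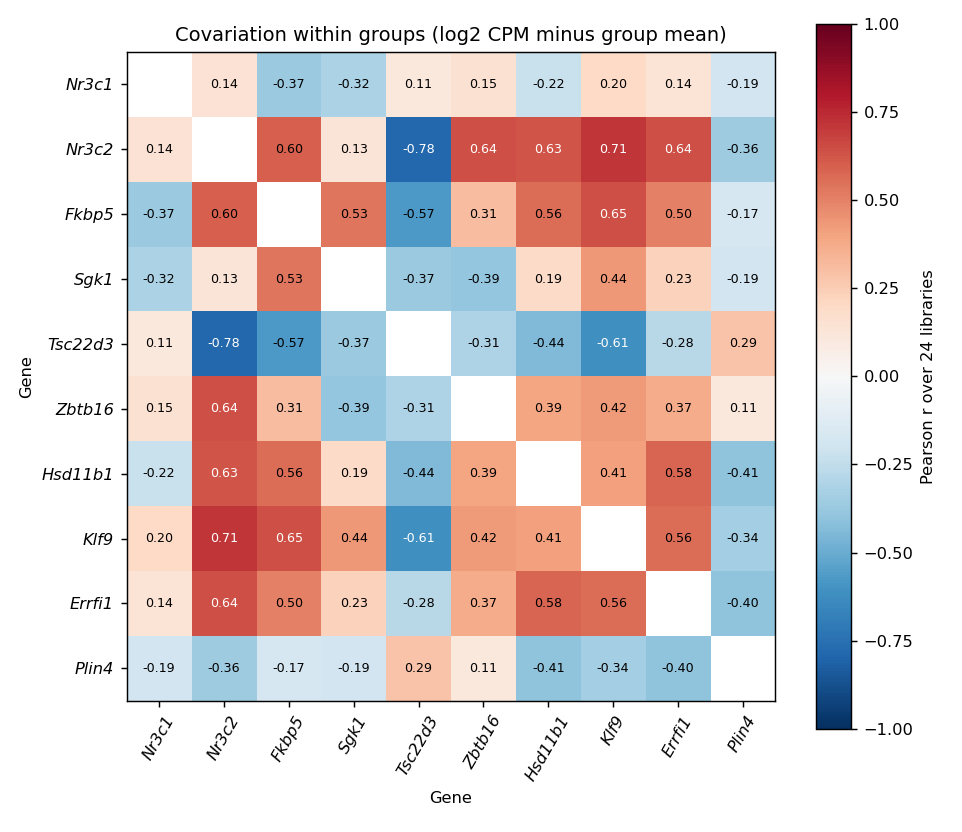
Pearson r (colour and printed value) of log2 CPM minus the group mean over 24 libraries for each pair of the 10 genes. *Nr3c2*, *Fkbp5*, *Zbtb16*, *Hsd11b1*, *Klf9* and *Errfi1* are positive with each other, *Tsc22d3* is negative with all 6, and the extremes are 0.71 (*Nr3c2* and *Klf9*) and -0.78 (*Nr3c2* and *Tsc22d3*).

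The same libraries differed in their cell markers, and the relation of the 10 members to 9 marker lists was computed in the same way after seeing the data. None of the 90 relations passed an adjusted p of 0.05 by Pearson r. *Fkbp5* had an r of 0.72 with the 10 granule neuron markers (permutation p 0.00388, adjusted p 0.0705), a rho of 0.86 (adjusted permutation p 0.00180) and an r of 0.88 without replicate 3 of WT and of control, which had the lowest marker sums at 292 and 422 CPM. With the 10 oligodendrocyte markers *Fkbp5* had an r of -0.60 (adjusted permutation p 0.0705) and a rho of -0.75 (adjusted p 0.0249). *Klf9* had a rho of 0.68 with the granule neuron markers (adjusted permutation p 0.0249; r 0.51, adjusted p 0.154). *Tsc22d3* had an r of 0.66 with the oligodendrocyte markers (adjusted permutation p 0.0705; rho 0.57, adjusted p 0.131). *Nr3c2*, *Zbtb16* and *Hsd11b1* had r of 0.59, 0.60 and 0.61 with the CA pyramidal neuron markers (adjusted permutation p 0.0778, 0.0775 and 0.0705; rho 0.60, 0.56 and 0.54). *Errfi1* had an r of -0.65 with the dorsal midbrain factors (adjusted permutation p 0.0705; rho -0.63) and of -0.61 with the mural cell and fibroblast markers (adjusted permutation p 0.0778; rho -0.59). *Nr3c2* had an r of -0.60 with the midbrain factors (adjusted permutation p 0.0778; rho -0.64). Other relations also changed without the 2 libraries farthest from the median of the marker list. The r fell in size to 0.48 for *Tsc22d3*, to 0.48, 0.47 and 0.54 for the CA pyramidal relations, and to -0.58 for *Errfi1* with mural markers. It rose in size to -0.71 for *Fkbp5* with oligodendrocyte markers and to 0.57 for *Klf9*. With the midbrain factors it rose in size to -0.69 for *Errfi1* and -0.65 for *Nr3c2*. The part of cell makeup in the covariation of the members was not tested further.

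**Figure D4:**
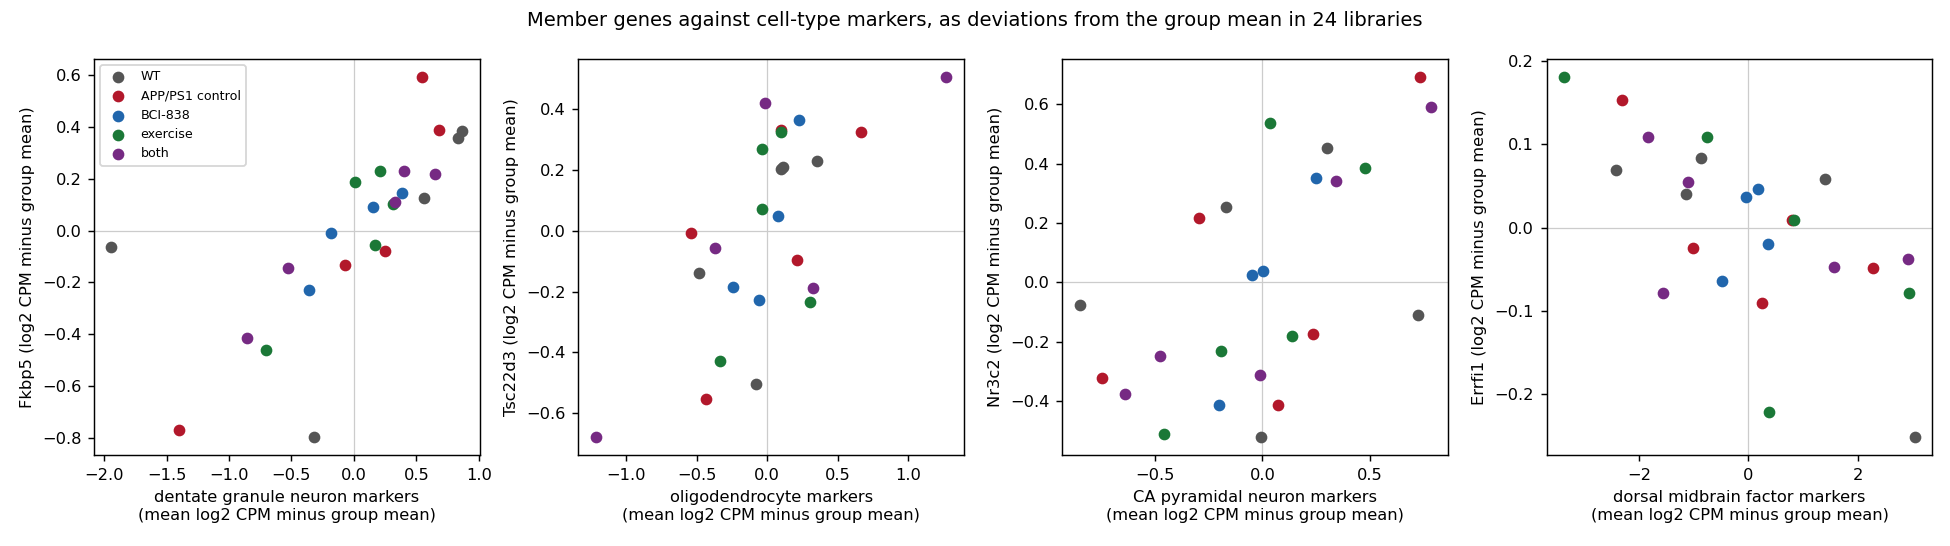
Log2 CPM of 4 genes (vertical axes) against the mean log2 CPM of a marker list (horizontal axes), both minus the group mean, with 1 point per library coloured by group. *Fkbp5* tended to be high in libraries rich in granule neuron markers (rho 0.86), and *Tsc22d3* in those rich in oligodendrocyte markers. *Nr3c2* tended to be high in those rich in CA pyramidal neuron markers, and *Errfi1* low in those rich in dorsal midbrain factors. None of these relations had an adjusted permutation p under 0.05 by Pearson r.

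The genes whose pattern was most like each member were ranked by the same r over the 24 libraries among all tested genes with a name of their own, as a description without a test. For *Fkbp5* they were *Orai2*, *Pgbd5* and *Prr7* (r 0.96, 0.95 and 0.95). For *Nr3c2* they were *Gria1*, an AMPA receptor subunit, *Slitrk5* and *Nckap1* (0.95, 0.94 and 0.93). *Klf9* was most like *Tpp2*, *Plaa* and *Senp6* (each 0.92), *Tsc22d3* most like *Herpud1*, *Kazald1* and *Cdr2* (0.92, 0.91 and 0.90), and *Zbtb16* most like *Tub*, *Elovl2* and *Palm2* (0.88, 0.81 and 0.80). The corresponding genes were *B3galt1*, *Hdac9* and *Reps2* for *Nr3c1* (0.87, 0.85 and 0.83), *Mfsd12*, *Daglb* and *Tpst1* for *Sgk1* (0.86, 0.84 and 0.82), and *Tacc2*, *Mocs3* and *Sec61a1* for *Hsd11b1* (0.85, 0.84 and 0.84). *Errfi1* was most like *Zdhhc13*, *Lrrc28* and *Nrbf2* (0.84, 0.81 and 0.81), and *Plin4* most like *Mpzl2*, *Scx* and *Als2cl* (0.79, 0.78 and 0.73). No member was among the 3 nearest genes of another.

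The wider pathway was described from lists of other genes, and edgeR called no gene of any of these lists in any of the 8 comparisons. Of 30 further glucocorticoid-induced genes 28 were tested (*Lcn2* and *Slc10a6* had too few counts). In exercise against control 24 were higher and 4 lower with a median of 0.15, beside 0.0088 over all genes, and 2 had an unadjusted p under 0.05 (all genes 5.44%). Of 14 endothelial markers 13 were higher too (median 0.25, 6 with an unadjusted p under 0.05), as were 9 of 10 oligodendrocyte markers (median 0.19), and their part in the list was not tested. The 2 genes were *Hif3a*, a hypoxia-inducible factor subunit (0.84, SE 0.28, edgeR p 0.00610, adjusted p 0.502), and *Nfkbia*, which encodes the inhibitor of NF-kappaB (0.42, SE 0.15, edgeR p 0.00943, adjusted p 0.585). *Nfkbia* stood at 19.3 ± 5.25 CPM with exercise and 14.4 ± 1.58 CPM in control (SD, n = 5 each), with the exercise libraries from 11.6 to 24.6 CPM and overlapping the controls. In both against exercise the same list had 7 higher and 21 lower with a median of -0.17, and 5 with an unadjusted p under 0.05, all lower, a share near the 17.6% of all genes. All 14 endothelial markers were lower in that comparison (median -0.36), as were 9 of 10 oligodendrocyte markers (median -0.23). Among the 5 were *Map3k6* (-0.68, edgeR p 0.0108, adjusted p 0.179), *Nfkbia* (-0.41, edgeR p 0.0117, adjusted p 0.180) and *Sult1a1* (-0.53, edgeR p 0.0121, adjusted p 0.181). The exercise libraries serve in both comparisons.

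The interaction of drug and wheel had 8 higher and 20 lower in that list, with 3 at an unadjusted p under 0.05 (all genes 9.60%), all lower. The list had 14 higher and 14 lower in control against WT, 10 and 18 in BCI-838 against control, 12 and 16 in both against control and 12 and 16 in both against BCI-838. *Map3k6*, a stress kinase, was the smallest-p gene of the list in the first 3 of these group comparisons. It stood at 6.17 ± 3.35 CPM in control, with libraries from 3.53 to 11.2 CPM, against 3.52 ± 0.503 in WT, 3.18 ± 0.432 with BCI-838 and 2.85 ± 0.421 CPM with both. Its log2 fold changes were 0.81 for control against WT (edgeR adjusted p 1.00), -0.95 for BCI-838 against control (adjusted p 0.208) and -1.11 for both against control (adjusted p 0.229). Of 12 choroid plexus markers, 12 were higher in control against WT (median 2.93). In BCI-838 against control 11 were lower (median -2.47), and in both against control 12 were lower (median -2.47). The part of this tissue in the *Map3k6* values was not tested. *Rasd1*, a dexamethasone-induced Ras-related gene, was higher with both than with BCI-838 by 1.05 (SE 0.36, edgeR p 0.00727, adjusted p 0.207), at 34.2 ± 16 against 16.5 ± 2.64 CPM. *Ddit4*, an inhibitor of mTORC1 signalling, stood at 43.4 ± 3.24 CPM with BCI-838 and between 52.8 and 59.0 CPM on average in the other groups.

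Of the 13 chaperones and co-chaperones of the receptor complex, 9 were higher and 4 lower in both against exercise, and 5 had an unadjusted p under 0.05 (4 higher and 1 lower), where 17.6% of all genes did. Leading them were *Hspa4* (0.19, edgeR p 0.0155, adjusted p 0.192), *Hspa8* (0.21, p 0.0276, adjusted p 0.232) and *St13* (0.18, p 0.0292, adjusted p 0.237). *Hsp90ab1*, which encodes the constitutive HSP90 that holds the unbound receptor, stood at 1733 ± 125 CPM with both and 1415 ± 90.7 CPM with BCI-838, a difference of 0.29 (SE 0.09, edgeR p 0.00336, adjusted p 0.191). *Fkbp4*, another co-chaperone of the receptor complex beside *Fkbp5*, stood at 114 ± 7.07 CPM with both and 135 ± 13.4 CPM in control (-0.24, edgeR p 0.0160, adjusted p 0.375). All 10 receptor coregulators were higher in both against exercise (median 0.23 beside -0.018 over all genes, 5 with an unadjusted p under 0.05, where 17.6% of all genes had one). In both against control all 10 were higher too (median 0.16, 2 with an unadjusted p under 0.05, all genes 10.6%). The exercise comparison also had 9 of 10 CA pyramidal neuron markers higher with both (median 0.49), and the control comparison had 8 of 10 higher (median 0.40). In the control comparison 10 of 10 microglia markers were higher too (median 0.22, 6 with an unadjusted p under 0.05). The part of these markers was not tested. The examples with the smallest p against exercise were *Ncoa2* (0.31, edgeR p 0.00222, adjusted p 0.131), *Ncor1* (0.35, p 0.00716, adjusted p 0.161) and *Ncoa1* (0.31, p 0.00771, adjusted p 0.163).

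Of 10 genes of steroid supply and transport 9 were tested. *Abcb1a*, which encodes a drug and steroid exporter of the blood-brain barrier, differed by 0.32 between BCI-838 and control (edgeR p 0.0344, adjusted p 0.439). In that comparison 4 of the 9 were higher and 5 lower. Only *Abcb1a* had an unadjusted p under 0.05, where 10.2% of all genes did. *Hsd11b2*, the enzyme that inactivates corticosterone and so opposes *Hsd11b1*, was near the limit of measurement, with group means between 0.257 and 0.525 CPM. The thyroid hormone receptor gene *Thra*, from a list of 7 other hormone receptors, differed by 0.34 between both and BCI-838 (edgeR p 0.00750, adjusted p 0.207). There 4 of the 7 were higher and 3 lower. Only *Thra* had an unadjusted p under 0.05, where 14.3% of all genes did. In the corticotropin-releasing hormone system 9 of 10 genes were tested, and *Crhr1* differed by 0.77 between BCI-838 and control (edgeR p 0.0328, adjusted p 0.436). Most of this list went the other way there, with 2 higher and 7 lower (median -0.18). An unadjusted p under 0.05 was found for 3 of the 9 (2 higher and 1 lower), where 10.2% of all genes had one. The lower gene was *Avpr1b* (-7.00, SE 2.86, edgeR p 0.0244, adjusted p 0.402). With so wide an SE the size of this difference is poorly measured.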

How the data were processed

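The authors deposited raw counts, whole numbers for each gene, in 1 table for all libraries. The submitters' processing notes name STAR, HTSeq, DESeq and the build mm10. For their versions and the strand setting, nothing is given in the sources used here. The authors' normalised table was not used here. Each column was matched to a sample by its name.

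The members and gene lists were chosen with earlier results of these data known. Counts were filtered with filterByExpr (minimum count 10, minimum total 15), scaled by TMM and tested with edgeR 4.0.16 in R 4.3.3 (quasi-likelihood F test, robust, a mean per group over 24 libraries). The script was tested on simulated counts. Members at an unadjusted p under 0.05 were given full statistics, pathway lists their 3 smallest-p genes at most. Alternatives used DESeq size factors, other filters, DESeq2 1.42.0, voom with quality weights (limma 3.58.1), a replicate block, marker covariates and fewer libraries. A chi-square test of counts gave at least 19.4 per gene in each of 276 library pairs, so no pair agreed within sampling noise. Exon lengths and coordinates came from the GRCm38 annotation. The number of mice limits precision.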

Additional observations from a re-analysis of the deposited data

Results flagged for a closer look

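In 4 of the 50 sets of libraries (10 genes in 5 groups) 1 library stood far from the rest by Dixon's criterion, which by chance flags about 1 set in 20. *Klf9* in replicate 4 of BCI-838 was low at 166 CPM, beside 183 CPM in the nearest library of the group. *Errfi1* in replicate 1 of WT was low at 30.4 CPM, with the nearest at 37.2 CPM. *Zbtb16* in replicate 3 of exercise was high at 116 CPM, with the nearest at 83.3 CPM. *Plin4* in replicate 4 of control was high at 9.48 CPM, with the nearest at 5.66 CPM. The 4 values came from 4 different libraries.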

How the results depend on the processing

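Each of the 9 member differences with an unadjusted p under 0.05 kept its direction under all 24 to 33 alternatives run for it. The 9 were picked at that p in these same libraries and share groups. The alternatives refit the same libraries or a part of them, so a kept direction was likely beforehand and is little of a test. For both against BCI-838 the number of members called was 2 with DESeq2 (all genes 1.47%), 3 with voom (4.79%) and 1 (*Errfi1*, adjusted p 0.0480; all genes 0.637%) when the compared libraries were fitted alone. For any difference among the 5 groups it was 3 with voom (8.84%). The calls thus change with the tool and the libraries fitted, and the cause was not tested. It was 0 in every other comparison and alternative. The *Zbtb16* difference between BCI-838 and control was smallest in size, at -0.30, with the choroid plexus covariate. The number of relations of *Fkbp5* that passed was 0 without the 4 libraries rich in *Ttr* and ranged from 0 to 6 when 1 library was left out, with 3 without replicate 3 of control. Fewer libraries enter these calculations. Under a replicate block 0 members were called in each comparison, and the difference between both and BCI-838 was 0.81 for *Nr3c2*, 0.28 for *Hsd11b1* and 0.28 for *Errfi1*. The numbers did not pair the libraries: over 46 pairs with the same number the mean correlation was 0.0030, and 6 of 24 libraries correlated best with one of their own number. *Plin4* had the fewest counts of the members, between 141 and 595 per library.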

Other observations

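Members of the circadian clock, through which glucocorticoids and daily timing are linked, were measured in the same comparisons. Of 16 genes 15 were tested, and edgeR called none in any comparison. In BCI-838 against control 12 were higher and 3 lower, with 4 at an unadjusted p under 0.05 (3 higher and 1 lower), where 10.2% of all genes had one. *Bhlhe41*, a clock repressor, stood at 63.4 ± 12.1 CPM with BCI-838 (SD, n = 4) and 32.4 ± 3.22 CPM in control (SD, n = 5). The ranges were 45.6 to 72.5 and 29.1 to 37.3 CPM, and the share of all genes with separate ranges was not computed here. The log2 fold change of *Bhlhe41* was 0.97 (SE 0.20, edgeR adjusted p 0.147), and *Per2* (0.51, adjusted p 0.287) and *Nr1d2* (0.45, adjusted p 0.326) followed. In the same comparison 9 of 10 astrocyte markers (median 0.19) and 6 of 7 tested dorsal midbrain factors (median 1.42) were higher. Of 10 CA pyramidal neuron markers 9 were lower (median -0.43). The part of these markers in the clock genes was not tested. In exercise against control *Dbp* differed by 0.69 (edgeR adjusted p 0.611) and *Nr1d1* by 0.23 (adjusted p 0.657). The hour of tissue collection is not given in the sources used here, and its part in these values was not tested. Of 10 immediate early genes, all 10 were lower in control than in WT, with a median of -0.20 beside -0.0078 over all genes. None of them had an unadjusted p under 0.05, where 2.76% of all genes did. In both against BCI-838, 7 of the 10 were higher, with a median of 0.51 beside -0.0057 over all genes. Of the CA pyramidal neuron markers 9 of 10 were higher in that comparison (median 0.72), and all 7 tested dorsal midbrain factors were lower (median -2.97). The part of these markers was not tested. *Junb* differed by 0.50 (edgeR p 0.0315, adjusted p 0.295).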
